A study of Homo sapiens with 9 samples.

Results

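The insulin-like growth factor (IGF) binding protein family was followed here as the 7 genes IGFBP1 to IGFBP7, taken by name with every probe set that the Affymetrix U133 Plus array annotation gives to one of them alone. These were 16 probe sets of the 41091 that name a single gene, and 7 of 19775 genes. The series measured RNA of HT-29 cells, an established human colon adenocarcinoma line, on 9 arrays. Triplicate cultures had been kept for 5 days with the vehicle dimethyl sulfoxide alone (0 µM), with 5 µM or with 10 µM of 5-aza-deoxycytidine (5-Aza), a cytidine analogue that traps DNA methyltransferases, and each culture was hybridised to its own array. All groups are cultures of this 1 line, and the controls received the vehicle. The vehicle and treated cultures were compared to see how RNA levels respond to 5-Aza, and the 10 µM cultures were set against the 5 µM cultures to see the effect of a higher dose. The family was chosen by the large rise of IGFBP1 signal in these same arrays, so the values of IGFBP1 are a description and carry no test.

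IGFBPs are small secreted proteins that hold IGF1 and IGF2 in the extracellular fluid, lengthen their life in the circulation and control how much of either reaches the type 1 IGF receptor. Proteases cut the binding proteins and release the growth factors, and several family members also act on cells without IGF through integrins, other surface proteins or the nucleus. In colon cancer the IGF axis drives growth, and promoter methylation of IGFBP genes, that of IGFBP3 above all, is a known form of their silencing in tumours.

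The windows before the transcription start were read for 5 of the members, and IGFBP1 and IGFBP7 had no entry. They differ in CpG content, so 4 of them are printed, each 250 bases long and read 5′ to 3′ on the strand of the gene. Bases after the start were not counted. Sequences are from RefSeq, build GRCh38.p14, in lower case with every CpG dinucleotide in capitals. The IGFBP3 window lies at chr7:45921273-45921522 on the minus strand and the IGFBP2 window at chr2:216633170-216633419 on the plus strand. Those of IGFBP5 and IGFBP6 lie at chr2:216695550-216695799 on the minus strand and at chr12:53097417-53097666 on the plus strand.
IGFBP3: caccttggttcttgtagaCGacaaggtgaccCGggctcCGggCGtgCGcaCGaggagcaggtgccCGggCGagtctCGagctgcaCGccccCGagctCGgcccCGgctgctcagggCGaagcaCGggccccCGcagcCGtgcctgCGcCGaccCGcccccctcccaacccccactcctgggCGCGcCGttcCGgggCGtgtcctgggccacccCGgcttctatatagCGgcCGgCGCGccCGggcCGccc
IGFBP2: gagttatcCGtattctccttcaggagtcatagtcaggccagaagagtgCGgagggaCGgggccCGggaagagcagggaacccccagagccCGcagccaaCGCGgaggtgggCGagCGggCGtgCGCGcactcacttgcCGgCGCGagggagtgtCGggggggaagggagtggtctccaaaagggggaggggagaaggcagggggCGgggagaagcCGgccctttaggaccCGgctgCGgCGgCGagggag
IGFBP5: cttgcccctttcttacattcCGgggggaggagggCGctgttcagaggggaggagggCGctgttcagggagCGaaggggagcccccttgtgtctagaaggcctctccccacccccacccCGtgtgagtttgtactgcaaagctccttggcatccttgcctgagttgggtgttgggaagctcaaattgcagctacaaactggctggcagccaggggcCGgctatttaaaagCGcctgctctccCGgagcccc
IGFBP6: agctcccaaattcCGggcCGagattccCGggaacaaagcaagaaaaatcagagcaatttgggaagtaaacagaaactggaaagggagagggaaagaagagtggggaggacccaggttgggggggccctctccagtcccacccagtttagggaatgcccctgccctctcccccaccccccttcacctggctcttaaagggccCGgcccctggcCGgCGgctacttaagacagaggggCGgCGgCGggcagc

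The IGFBP3 window held 32 CpG dinucleotides and was 76.0% G and C, with an observed over expected CpG ratio of 0.90. That was more CpG than in 90.5% of the 35116 promoter windows of the same length in the table, whose median was 11 CpG and 58.0% G and C. The IGFBP4 window at chr17:40443200-40443449 on the plus strand held 24 CpG. IGFBP2 had 3 listed starts, with 22 CpG in the window printed, 7 in the window at chr2:216632578-216632827 and 4 in the one at chr2:216659317-216659566. IGFBP6 held 9 and IGFBP5 held 8, both under the median. The motif TATAAA, searched on both strands, was found in the IGFBP4 window alone among the 5 members with an entry, and 10.7% of all promoter windows hold it. GGGCGG, the core of the binding site of SP1, was found in windows of IGFBP2, IGFBP3, IGFBP4 and IGFBP6 and in 42.6% of all windows. The files hold RNA levels, and methylation of these windows was not analysed here.

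**Figure D1:**
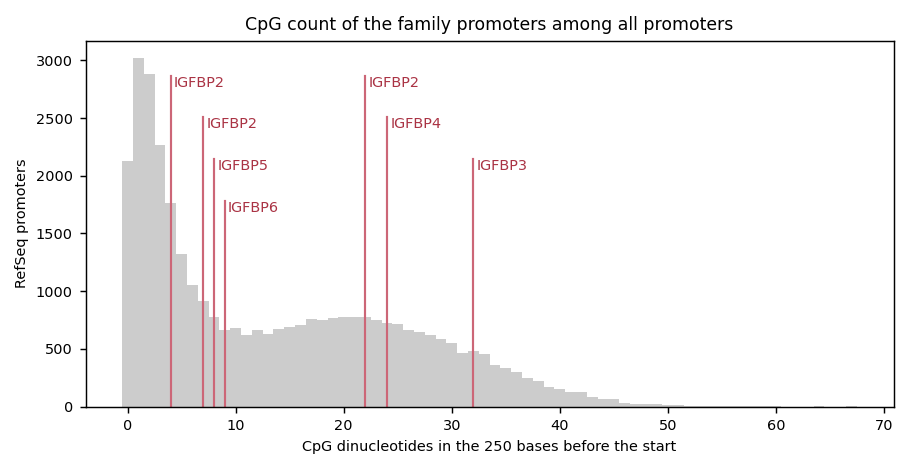
Histogram of the number of CpG dinucleotides in the 250 bases before the start over 35116 RefSeq promoters (grey bars, x axis CpG count, y axis number of promoters), with a red line for each window of the family. IGFBP3 lies on the right at 32, IGFBP2 has windows at 4, 7 and 22, and IGFBP5 and IGFBP6 lie at 8 and 9.

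All signals below are log2 values on the scale of the deposited table, and the median of an array, between 5.07 and 5.52, served as its floor. A gene was represented by its probe set of highest mean signal and was tested where it reached the floor on all 3 arrays of at least 1 dose, which held for 11756 genes and for 5 of the 7 members, IGFBP1, IGFBP2, IGFBP3, IGFBP4 and IGFBP6. Calls needed both a difference over 2-fold and a p-value no higher than 0.05 in limma's test after Benjamini-Hochberg adjustment across those genes. Where a group lay below the floor, the fold is given as a lower bound against the floor ("at least"). In the 10 µM group, replicates 2 and 3 stood apart in the 18S ribosomal RNA 5′ control, with 13.45 and 13.60 against 11.77 in replicate 1 and between 12.00 and 12.56 in the other groups. The 18S 3′ control did not set them apart, with 13.47, 13.51 and 13.69 in 10 µM replicates 1, 2 and 3. Which of these arrays are the sounder was not tested. The calls and member differences at 10 µM are also given from replicate 1 alone. That array was then assumed to vary like those of the other groups, which supply the whole spread of such a fit, so a call lost in it does not show that a difference is absent. For actin, the gap between the 3′ and 5′ control probe sets, a gauge of RNA degradation, widened with dose from 2.09 ± 0.19 at 0 µM to 2.59 ± 0.10 at 5 µM and 2.98 ± 0.17 at 10 µM (SD, n = 3). The dose groups did not overlap in this gap, so as a covariate it can hardly be told apart from dose. A call lost with that covariate therefore does not show that a difference is absent. Of 12 colon epithelium markers, 9 were at the floor or above on all vehicle arrays and 8 on all arrays of either treated group, EPCAM, VIL1, KRT8, KRT18 and KRT20 among them. Their summed signal ranged from 16.23 to 16.28 at 0 µM, from 15.75 to 15.92 at 5 µM and from 15.69 to 15.84 at 10 µM. At 5 µM CEACAM5 was called higher than in the vehicle, by 1.67 (limma adjusted p = 3.98e-05). GPA33 was called lower there by -1.74, at least 1.53-fold (limma adjusted p = 0.0299). At 10 µM CEACAM5 differed from the vehicle by 0.89 and was not called. KRT8 was called lower at 10 µM than in the vehicle by -1.05 (limma adjusted p = 0.00102), or -0.75 and not called from replicate 1 alone. The summed signal of 10 fibroblast markers ranged from 8.22 to 8.72 at 0 µM, from 10.21 to 10.23 at 5 µM and from 9.42 to 9.67 at 10 µM, with 2 markers, 3 markers and 2 markers at the floor on every array of the group. All 3 tested, COL1A1, COL6A3 and LUM, were called higher at 5 µM, by 2.68, 4.26 and 1.57 (limma adjusted p = 0.00014, 0.00133 and 0.000165). COL1A1 and COL6A3 were also called higher at 10 µM than in the vehicle, with no value given from replicate 1 alone. Of 2 tested endothelial markers, TEK was called higher at 5 µM, by 1.41 (limma adjusted p = 0.00597), and PECAM1 was not called. Neither of 2 tested blood cell markers was called. Only 1 hepatocyte marker of 12 reached the floor on all vehicle arrays and 2 of 12 did so in either treated group, and their summed signal ran from 8.41 to 8.74, from 8.83 to 8.89 and from 8.79 to 9.10. One of them, the apolipoprotein APOA2, was called higher at 5 µM than at 0 µM, by 3.29, and lower at 10 µM than at 5 µM, by -3.57 (limma adjusted p = 0.00554 and 0.011), the latter not called from 10 µM replicate 1 alone (-2.54). Its groups at 0 and 10 µM had means below the floor, 2.39 and 2.11, and it passed the filter only through the 5 µM group. The other tested hepatocyte markers, CYP3A4 and TAT, were not called. They differed by -0.53 and 0.80 between 5 and 0 µM and by 0.78 and 0.60 between 10 and 5 µM. The part of these values in the results below was not tested. In RNA of whole cultures, more cells that express a gene and more RNA per cell cannot be told apart.

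IGFBP1 encodes a binding protein made mainly in the liver, where insulin represses it and fasting and stress raise it. The probe set 205302_at gave signals of 3.67, 4.19 and 3.61 at 0 µM, 10.43, 10.29 and 10.54 at 5 µM, and 8.25, 8.50 and 8.30 at 10 µM. The groups did not overlap: every vehicle array lay below the floor, and every 5 µM array lay above every 10 µM array. The mean went from 3.82 ± 0.32 to 10.42 ± 0.12 and then to 8.35 ± 0.13 (SD, n = 3). The signal at 5 µM was at least 38.7-fold that of the vehicle, and the signal at 10 µM at least 9.20-fold. The mean at 10 µM was 4.20-fold below that at 5 µM, a log2 difference of -2.07 ± 0.16 (SE). From 10 µM replicate 1 alone, the differences were -2.17 against 5 µM and 4.43 against the vehicle. The other probe set of the gene, 237989_at, stayed below the floor on all 9 arrays, between -0.32 and 3.90. The mean of both probe sets therefore gave a difference of 3.37 in place of 6.60 at 5 µM.

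**Figure D2:**
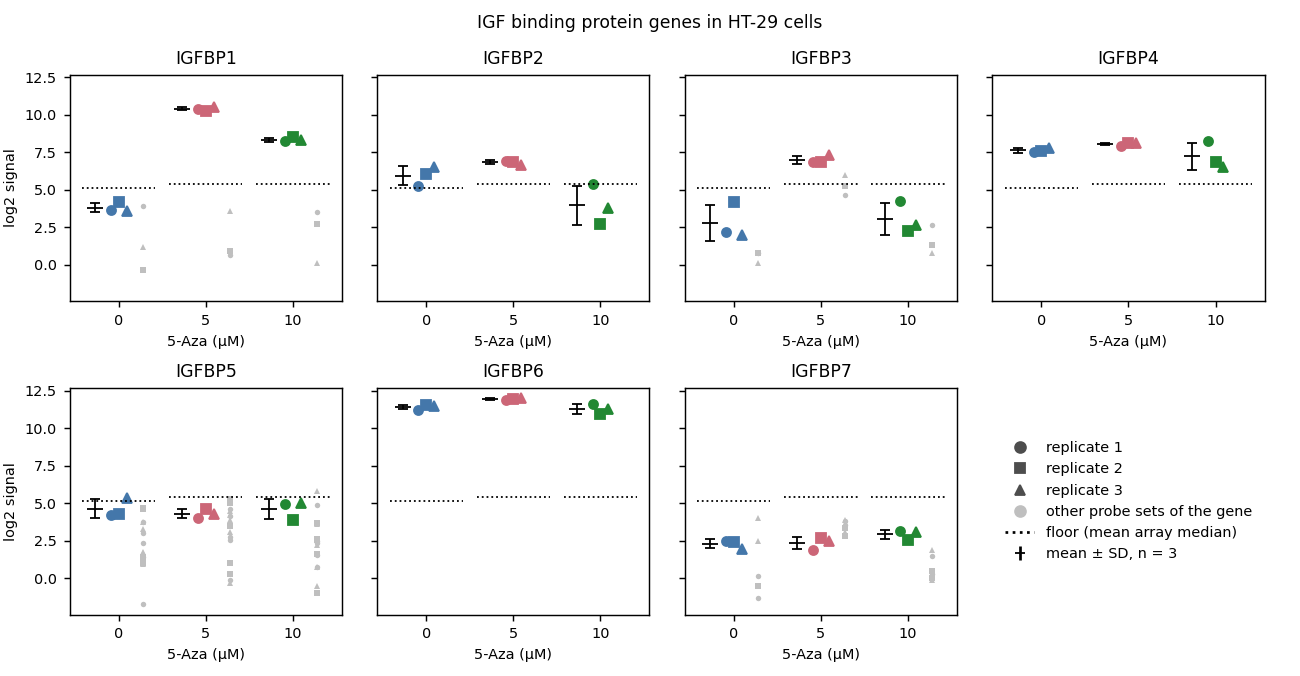
Log2 signal of the 7 family members by dose of 5-Aza in µM, with 1 panel a gene and a symbol for each replicate of the probe set that stands for the gene, other probe sets in grey, the mean array median as a dotted line, and mean ± SD over 3 arrays in black. IGFBP1 and IGFBP3 rose above the dotted line at 5 µM, IGFBP2 lay below it at 10 µM, IGFBP4 and IGFBP6 stayed above it, and IGFBP5 and IGFBP7 lay almost wholly under it.

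IGFBP3 encodes the main IGF carrier of blood, which forms a ternary complex with IGF and the acid-labile subunit and which also restrains growth of many epithelial cells. Its probe set 210095_s_at gave signals of 2.17, 4.19 and 2.00 at 0 µM, 6.85, 6.88 and 7.32 at 5 µM, and 4.26, 2.29 and 2.63 at 10 µM. All 3 arrays at 5 µM lay above the floor and above every other array, while those at 0 and 10 µM lay below the floor and overlapped. IGFBP3 rose at 5 µM by 4.23 ± 0.64 (log2 difference ± SE) with a limma adjusted p of 0.00147, at least 3.65-fold. It was lower at 10 µM than at 5 µM by a log2 difference of -3.95 ± 0.64 with a limma adjusted p of 0.00734, at least 3.01-fold. Both the 0 and the 10 µM group lay wholly below the floor, so whether IGFBP3 returned to its vehicle level could not be measured. IGFBP3 passed the filter only through the 5 µM group. With every probe set fitted and none filtered, the adjusted p became 0.0183 for the rise and 0.0885 for the fall. From 10 µM replicate 1 alone, the difference from 5 µM was -2.75 with a limma adjusted p of 0.0863. With the actin gap as a covariate both calls were lost, the rise being 5.15 ± 1.24 and the fall -3.24 (limma adjusted p = 0.0524 and 0.263).

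The other probe set of IGFBP3, 212143_s_at, gave 0.77, 0.77 and 0.14 at 0 µM, 4.63, 5.23 and 5.99 at 5 µM, and 2.63, 1.32 and 0.77 at 10 µM. Its arrays at 5 µM again lay above all others, though only 1 of them reached the floor. Both probe sets carry the ending _s_at, which marks probes shared between transcripts. The window printed for IGFBP3 was the richest in CpG among the 5 members with an entry. Over the array, the median count was 19 CpG for the 783 genes that rose at 5 µM and have a promoter entry, and 23 for the 8717 that were not called, taking the start with most CpG for each gene.

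IGFBP2 encodes a binding protein abundant in plasma that is raised in many tumours and that holds an integrin-binding motif. Its only probe set, 202718_at, gave 5.28, 6.04 and 6.56 at 0 µM, 6.95, 6.87 and 6.69 at 5 µM, and 5.37, 2.72 and 3.78 at 10 µM. The 5 µM arrays lay above all others, the 10 µM arrays all lay below their floor, and 10 µM replicate 1 overlapped the vehicle group. IGFBP2 fell between 5 and 10 µM, at least 2.67-fold, with a log2 difference of -2.88 ± 0.59 (SE) and a limma adjusted p of 0.0158. Against the vehicle it fell at least 1.45-fold at 10 µM, with a difference of -2.00 ± 0.59 and a limma adjusted p of 0.0302. Between 5 and 0 µM the means were 6.84 ± 0.13 and 5.96 ± 0.64 (SD, n = 3), a 1.84-fold difference of 0.88 ± 0.59 with a limma adjusted p of 0.281.

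Both falls of IGFBP2 depended on single arrays and on the fit. Their adjusted p-values became 0.124 and 0.128 with every probe set fitted and none filtered, 0.29 and 0.859 with the actin gap as a covariate, and 0.125 and 0.19 by the methods' test of each gene alone, so neither was then called. From 10 µM replicate 1 alone, the difference was -1.46 against 5 µM (limma adjusted p = 0.0879) and -0.59 against the vehicle (limma adjusted p = 0.335). The call against 5 µM was lost without 5 µM replicate 1, 5 µM replicate 2, 5 µM replicate 3 or 10 µM replicate 3, with differences of -2.82, -2.86, -2.95 and -2.79 and limma adjusted p-values of 0.0538, 0.0542, 0.0568 and 0.0599. The call against the vehicle was lost without 0 µM replicate 2, 0 µM replicate 3, 10 µM replicate 2 or 10 µM replicate 3, with differences of -1.96, -1.70, -1.38 and -1.91.

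IGFBP4, which mostly inhibits IGF action until the protease PAPP-A cuts it, was above the floor on all 9 arrays. It gave 7.51, 7.59 and 7.80 at 0 µM, 7.96, 8.14 and 8.11 at 5 µM, and 8.29, 6.85 and 6.54 at 10 µM. The 10 µM group held both the highest array, replicate 1, and the lowest of the 9, and overlapped the others. At 5 µM the difference from the vehicle was 0.44 ± 0.38 (limma adjusted p = 0.406), with a spread pooled over all 9 arrays. In a fit of the 2 groups alone it was 0.44 ± 0.11 (limma adjusted p = 0.018), under 2-fold and not called. The SD was 0.15 at 0 µM, 0.09 at 5 µM and 0.93 at 10 µM. At 10 µM the difference was -0.40 ± 0.38 against the vehicle and -0.84 ± 0.38 against 5 µM (limma adjusted p = 0.439 and 0.163). Which 10 µM arrays were used decided the sign. From replicate 1 alone the difference between 10 and 5 µM was 0.22 and that against the vehicle 0.66, and without replicate 1 the former was -1.37 and was called (limma adjusted p = 0.00302).

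IGFBP6, which binds IGF2 in preference to IGF1, also stayed above the floor on all 9 arrays. Its signals were 11.25, 11.52 and 11.49 at 0 µM, 11.90, 11.96 and 12.01 at 5 µM, and 11.63, 10.93 and 11.31 at 10 µM. Each 5 µM array lay above every array of the other groups, and the 0 and 10 µM groups overlapped. The mean was 1.45-fold higher at 5 µM than in the vehicle, a difference of 0.54 ± 0.17 with a limma adjusted p of 0.0381, and 1.59-fold lower at 10 µM than at 5 µM, a difference of -0.67 ± 0.17 with a limma adjusted p of 0.0323. The latter was -0.32 from 10 µM replicate 1 alone. Neither reached 2-fold, so IGFBP6 was not called. The difference between 10 and 0 µM was -0.13 ± 0.17 with an adjusted p of 0.587, and 0.21 from 10 µM replicate 1 alone.

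IGFBP5, which binds extracellular matrix and also forms ternary complexes, had 6 probe sets and IGFBP7, a relative with low affinity for IGF, had 3. None was tested. For IGFBP5 the probe set of highest signal, 203426_s_at, had means of 4.62, 4.31 and 4.61 at 0, 5 and 10 µM and reached the floor on 1 vehicle array at 5.35. Another, 203425_s_at, reached it on 1 array at 10 µM with 5.83, and the remaining probe sets stayed below it. The 3 probe sets of IGFBP7 were below the floor on all 9 arrays, between -1.32 and 3.98. Its probe set 201162_at had means of 2.29, 2.33 and 2.92 at 0, 5 and 10 µM, and 213910_at of 0.70, 3.33 and 0.87. The probe sets of IGFBP5 differed from each other as well, with means of 0.84, 4.60 and 2.21 for 211959_at and of 2.02, 0.18 and 0.28 for 1555997_s_at. No order of doses is read from values below the floor, and no fold is given.

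Set side by side, the 4 tested members other than IGFBP1 had 1 rise and 0 falls among them at 5 µM, where 9.91% of all tested genes were called, 8.59% higher and 1.32% lower. Between 10 and 5 µM, 2 of the 4 fell, IGFBP2 and IGFBP3, where 2.35% of all tested genes were called and 2.08% were lower. Between 10 and 0 µM, 1 of the 4 fell, IGFBP2, where 7.58% were called and 1.50% were lower. None of these falls was called from 10 µM replicate 1 alone. In 4 of the 4 the 5 µM arrays lay above every vehicle array, which held for 31.0% of all tested genes in that direction. In 3 of the 4, IGFBP2, IGFBP3 and IGFBP6, the 10 µM arrays lay below every 5 µM array, which held for 18.6% of tested genes. No member had separate 0 and 10 µM groups except IGFBP1 among those tested, while 44.5% of all tested genes did in one direction or the other. The median difference over all tested genes was 0.04, -0.01 and 0.05 in the same order of comparisons. These comparisons share arrays, so the rise at 5 µM and the fall from it rest on the same 5 µM arrays.

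**Figure D3:**
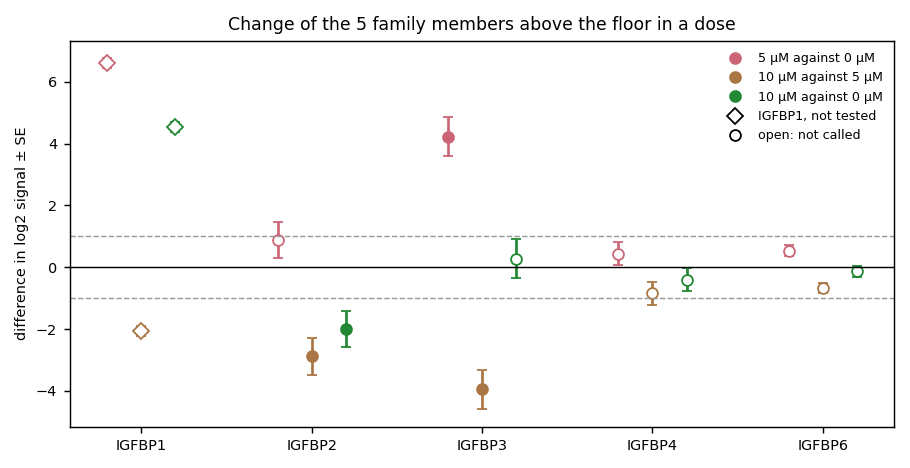
Difference in log2 signal with its SE for the 5 family members that reached the floor, in colour for 5 against 0 µM, 10 against 5 µM and 10 against 0 µM, with filled circles for calls, open circles for no call, diamonds for IGFBP1 (not tested) and dashed lines at a 2-fold difference. IGFBP3 was called up at 5 µM and down between 5 and 10 µM, IGFBP2 was called down in both comparisons with 10 µM, and IGFBP4 and IGFBP6 stayed within the dashed lines.

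Across the 9 arrays the pattern of IGFBP3 was most like that of IGFBP6 within the family (Pearson r = 0.90), and IGFBP2 was nearer to IGFBP6 (0.87) and IGFBP4 (0.83) than to IGFBP1 (0.07). The r of IGFBP1 with IGFBP3 was 0.74. These values describe 9 arrays in 3 dose groups, which share the dose means. Among all tested genes, those most like IGFBP1 were SLC51B, a subunit of a bile acid exporter (r = 0.998), INHBE, an inhibin subunit (0.997), SFTA2 (0.995), TFF2, a mucosal trefoil peptide (0.995), and IL1R1, the interleukin 1 receptor (0.994). SLC51B had means of 7.36, 10.01 and 9.17 at 0, 5 and 10 µM and INHBE of 8.23, 11.20 and 10.41, so both, like IGFBP1, were highest at 5 µM and stayed above the vehicle at 10 µM. For IGFBP3 the nearest were FOXA3, a forkhead transcription factor (0.963), TMC3-AS1 (0.959) and SECTM1 (0.958). SECTM1 had means of 5.94, 8.31 and 6.73. For IGFBP6 they were FGF21, a fasting hormone (0.976), EDEM2 (0.972) and NAPA (0.970), and FGF21 had means of 5.50, 7.57 and 5.48. RBM42 (0.982), PMM1 (0.965) and CDC34 (0.960) were nearest to IGFBP2, and SLC2A5, a fructose transporter (0.978), ZNF580 (0.977) and KCNAB1 (0.977) to IGFBP4.

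On the chromosomes, IGFBP1 and IGFBP3 are neighbours on chromosome 7 and IGFBP2 and IGFBP5 on chromosome 2. The genes that flank the chromosome 7 pair were not called at 5 µM, SEPTIN7P2 with a difference of 0.30 (limma adjusted p = 0.141) and TNS3 with -0.08 (limma adjusted p = 0.487). Members themselves left out, 30 different genes with a probe set were among the 3 nearest on each side of a member, and 15 were tested. CSAD, near IGFBP6, rose at 5 µM by 1.04 and at 10 µM by 1.48 (limma adjusted p = 0.00966 and 0.00251), or by 1.88 from 10 µM replicate 1 alone. TOP2A, next to IGFBP4 and a topoisomerase of dividing cells, had a difference of -1.39 between 10 and 5 µM and was called (limma adjusted p = 0.0091), though not from 10 µM replicate 1 alone (-1.40). No other neighbour outside the family was called in any of the 3 comparisons. Of the 15, that made 1 higher at 5 µM, 1 lower between 10 and 5 µM and 1 higher between 10 and 0 µM. Among all tested genes, 8.59%, 2.08% and 6.08% were called in those directions.

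The rest of the IGF system was taken as 8 lists of 122 genes in all, of which 111 had a probe set of their own and 79 were tested. At 5 µM, 9 rose and 0 fell, 11.4% and 0% of the 79 beside 8.59% and 1.32% of all tested genes, and the median difference was 0.11. Between 10 and 5 µM, 0 rose and 4 fell, 0% and 5.06% beside 0.264% and 2.08%, with a median of -0.19. Between 10 and 0 µM, 5 rose and 2 fell, 6.33% and 2.53% beside 6.08% and 1.50%, with a median of -0.05. From 10 µM replicate 1 alone, 1 fell between 10 and 5 µM, and between 10 and 0 µM 4 were called higher and 1 lower. The actin gap moved with dose, and with it as a covariate 5 rose at 5 µM, TIMP1, STC2, CCN3, SOCS2 and SESN3, and none was called in either comparison with 10 µM.

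**Figure D4:**
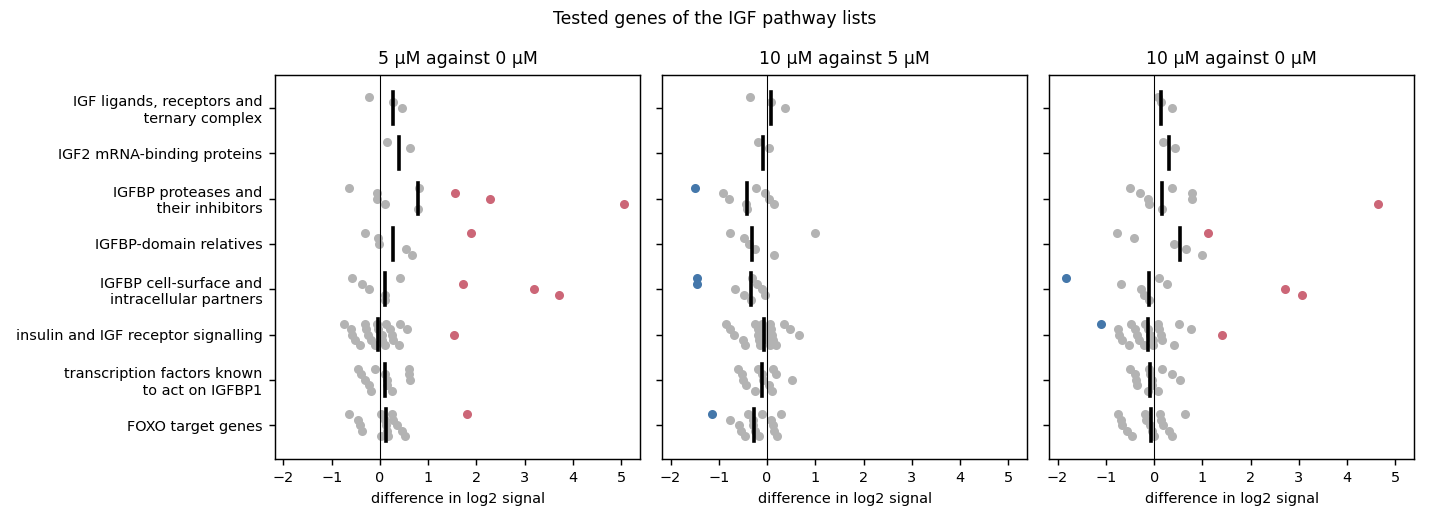
Difference in log2 signal of every tested gene of the 8 IGF system lists in the 3 comparisons (x axis), with 1 row a list, red for genes called higher, blue for genes called lower, grey for the others and a bar at the median of the list. MMP1, FN1 and VIM lie farthest to the right at 5 µM and at 10 µM against the vehicle, and most genes of the signalling list lie within 1 of no difference.

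Of the ligands, receptors and ternary complex, 7 had a probe set and 3 were tested, none of them called. The 3 were the receptors IGF2R, IGF1R and INSR, so no ligand and no IGFALS, the acid-labile subunit, was tested. Median differences were 0.28, 0.09 and 0.14 for 5 against 0, 10 against 5 and 10 against 0 µM. IGF2R, the receptor that clears IGF2, gave 10.82, 10.87 and 10.99 at 0 µM and 11.35, 11.31 and 11.35 at 5 µM, a difference of 0.45 ± 0.10 with a limma adjusted p of 0.00818 that stayed under 2-fold. The receptor IGF1R differed by -0.23 ± 0.12 at 5 µM with a limma adjusted p of 0.184, and the insulin receptor INSR by 0.28 ± 0.20 with an adjusted p of 0.306. Of the IGF2 mRNA-binding proteins, which stabilise and transport that messenger, 2 of 3 were tested and none was called. IGF2BP2 was higher by 0.62 ± 0.10 at 5 µM with a limma adjusted p of 0.00232, short of 2-fold, and IGF2BP3 differed by 0.15 ± 0.10.

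Among 21 IGFBP proteases and their inhibitors on the array, 9 were tested, 3 rose at 5 µM, 1 fell between 10 and 5 µM and 1 rose between 10 and 0 µM, with medians of 0.79, -0.41 and 0.16. The collagenase MMP1, which cuts binding proteins as well as collagen, gave -0.74, 2.72 and 1.93 at 0 µM, 6.38, 6.13 and 6.57 at 5 µM, and 5.97, 5.98 and 5.89 at 10 µM. Both treated groups lay above the floor and above all vehicle arrays, at least 2.32-fold higher at 5 µM and at least 1.74-fold at 10 µM (limma adjusted p = 0.00106 and 0.00226). With the actin gap as a covariate the differences were 3.49 and 1.86 (limma adjusted p = 0.172 and 0.903), and neither was called. The call at 10 µM was also lost by the methods' test of each gene alone (adjusted p = 0.0667) and with low signals raised to the floor (0.80), and it was kept from 10 µM replicate 1 alone (4.66, limma adjusted p = 0.0341). TIMP1, an inhibitor of metalloproteinases, gave 11.33, 11.31 and 11.45 at 0 µM and 12.92, 12.78 and 13.04 at 5 µM, 2.93-fold higher (limma adjusted p = 0.0011). STC2, a secreted inhibitor of PAPP-A, was at least 1.71-fold higher at 5 µM (limma adjusted p = 0.000943). Its call rests on vehicle values below the floor, and with low signals raised to the floor the difference was 0.78 and was not called. Its fall from 5 to 10 µM, -1.50 ± 0.32 with a limma adjusted p of 0.0172, was at least 1.41-fold, since every 10 µM array lay below the floor. The fall was not called without 5 µM replicate 1 (-1.47), 5 µM replicate 2 (-1.32), 10 µM replicate 3 (-1.19) or 10 µM replicates 2 and 3 (-1.46). It was also lost with low signals raised to the floor (-0.50), with no filter on dim genes (limma adjusted p = 0.0695) and by the methods' test of each gene alone (adjusted p = 0.13). Both MMP1 and STC2 passed the filter only through groups in which they were high.

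Of 13 proteins that share the IGF-binding domain, 6 were tested, with medians of 0.26, -0.31 and 0.55. CCN3, a matricellular growth regulator, was the only one called, with signals of 4.81, 3.69 and 4.25 at 0 µM, 6.42, 5.82 and 6.14 at 5 µM, and 5.21, 5.56 and 5.30 at 10 µM. The groups did not overlap, and it rose at 5 µM by 1.88 ± 0.27 with a limma adjusted p of 0.00111, at least 1.98-fold. CCN3 passed the filter only through the 5 µM group, and with low signals raised to the floor the difference was 0.98 and was not called. Its rise at 10 µM against the vehicle, 1.11 ± 0.27 with a limma adjusted p of 0.0146, was at least 1.16-fold, and only 1 array at 10 µM reached the floor. The difference became 0.83 without 0 µM replicate 2 and 0.96 from 10 µM replicate 1 alone and was then not called. The call was also lost with equal array medians (0.83), quantile normalization (0.83) and low signals raised to the floor (0.38). The same held with no filter on dim genes (limma adjusted p = 0.0534) and by the methods' test of each gene alone (adjusted p = 0.109).

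Of 13 surface and intracellular partners of the binding proteins on the array, 9 were tested, 3 rose at 5 µM, 2 fell between 10 and 5 µM, and 2 rose and 1 fell between 10 and 0 µM, with medians of 0.11, -0.33 and -0.11. Fibronectin, FN1, gave 2.61, 4.72 and 2.07 at 0 µM, 6.58, 6.78 and 7.19 at 5 µM, and 6.14, 5.94 and 6.49 at 10 µM. It rose at least 3.25-fold at 5 µM and at least 2.06-fold at 10 µM (limma adjusted p = 0.00165 and 0.00523), the latter not called from 10 µM replicate 1 alone (difference 3.01, limma adjusted p = 0.0572) or by the methods' test of each gene alone (adjusted p = 0.0884). With the actin gap as a covariate neither was called (limma adjusted p = 0.107 and 0.728). FN1 passed the filter only through the treated groups, in which it was high. The intermediate filament protein VIM was at least 1.55-fold higher at 5 µM (limma adjusted p = 0.00904) and passed the filter only through that group. Its call rests on vehicle values below the floor: it was lost with low signals raised to the floor (0.64), by the methods' test of each gene alone (adjusted p = 0.0805) and with the actin gap as a covariate (limma adjusted p = 0.067). Its rise at 10 µM, 2.71 ± 0.71 with a limma adjusted p of 0.0192, was at least 1.12-fold. That rise was not called without 0 µM replicate 1 (2.53), 10 µM replicate 1 (2.48) or 10 µM replicates 2 and 3 (3.18). It was also lost with low signals raised to the floor (0.39) and by the methods' test of each gene alone (adjusted p = 0.158). The same held with no filter on dim genes and in a fit of the 2 groups alone (limma adjusted p = 0.065 and 0.0539). FN1 and VIM are also genes of fibroblasts, and the fibroblast marker sum given above moved with them, which was not tested.

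CAV1, the caveolar coat protein, gave 7.33, 6.95 and 6.89 at 0 µM, 8.69, 8.57 and 9.11 at 5 µM, and 7.05, 7.84 and 7.08 at 10 µM. It was 3.33-fold higher at 5 µM than in the vehicle and 2.76-fold lower at 10 µM than at 5 µM (limma adjusted p = 0.000911 and 0.00736), and the fall was also called from 10 µM replicate 1 alone (-1.74). Both calls were lost with the actin gap as a covariate, with differences of 1.94 and -1.30 (limma adjusted p = 0.0557 and 0.243), and the fall also by the methods' test of each gene alone (adjusted p = 0.084). LRP1, an endocytic receptor that IGFBP3 binds, gave 7.54, 7.59 and 7.86 at 0 µM, 7.32, 7.09 and 7.44 at 5 µM, and 6.62, 5.23 and 5.65 at 10 µM. It was 3.56-fold lower at 10 µM than in the vehicle (limma adjusted p = 0.00308), with a difference of -1.83, or -1.04 from 10 µM replicate 1 alone. The methods' test of each gene alone did not call it (adjusted p = 0.0691). Its fall from 5 to 10 µM, -1.45 ± 0.30 with a limma adjusted p of 0.0172, was not called without 5 µM replicate 1 (-1.43), 5 µM replicate 3 (-1.37), 10 µM replicate 3 (-1.36) or 10 µM replicates 2 and 3 (-0.66), or by that test (adjusted p = 0.139).

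Inside the cell, 25 genes of insulin and IGF receptor signalling had a probe set and 23 were tested, with medians of -0.04, -0.06 and -0.13. At 5 µM 1 rose, between 10 and 0 µM 1 rose and 1 fell, and between 10 and 5 µM none was called. SOCS2, a feedback inhibitor of growth hormone and IGF signalling, gave 6.05, 5.64 and 5.34 at 0 µM, 6.93, 7.34 and 7.38 at 5 µM, and 7.03, 7.30 and 6.92 at 10 µM. Every treated array lay above every vehicle array, 2.92-fold higher at 5 µM and 2.65-fold at 10 µM (limma adjusted p = 0.000719 and 0.00162). The latter difference was 1.35 from 10 µM replicate 1 alone and was still called (limma adjusted p = 0.0236). EIF4EBP1, the translation repressor that mTOR phosphorylates, was 2.16-fold lower at 10 µM than in the vehicle (limma adjusted p = 0.000673). Its difference of -1.11 became -0.97 without 10 µM replicate 3 and -0.92 without replicates 2 and 3, under 2-fold.

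Of the transcription factors known to act on IGFBP1, all 13 with a probe set were tested and none was called in any comparison, with medians of 0.10, -0.11 and -0.08. FOXO1, the forkhead factor through which insulin represses IGFBP1 in liver, gave 8.96, 8.92 and 8.91 at 0 µM and 9.53, 9.51 and 9.55 at 5 µM. That was 1.51-fold higher, a difference of 0.60 ± 0.13 with a limma adjusted p of 0.0077, and the groups did not overlap. CEBPB was lower by a difference of -0.40 ± 0.09 at 5 µM and of -0.51 ± 0.09 at 10 µM against the vehicle (limma adjusted p = 0.0108 and 0.00441), also under 2-fold, the latter being -0.50 from 10 µM replicate 1 alone.

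Of 19 other known targets of the FOXO factors 16 were tested, 1 rose at 5 µM and 1 fell between 10 and 5 µM, with medians of 0.13, -0.28 and -0.06. Both calls were of SESN3, a stress-induced inhibitor of mTOR signalling, which gave 5.60, 5.10 and 5.49 at 0 µM, 7.04, 7.20 and 7.34 at 5 µM, and 6.40, 6.37 and 5.37 at 10 µM. It was 3.48-fold higher at 5 µM than in the vehicle, with no overlap (limma adjusted p = 0.00138). The fall from 5 to 10 µM, -1.15 ± 0.27 with a limma adjusted p of 0.0251, was not called without 5 µM replicate 1 (-1.22), 5 µM replicate 2 (-1.15), 5 µM replicate 3 (-1.07), 10 µM replicate 3 (-0.81) or 10 µM replicates 2 and 3 (-0.80).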

How the data were processed

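RNA of 9 HT-29 cultures, 3 per dose, was hybridised to 1 array each, and groups and doses came from the sample labels. The authors deposited log2 signals for 54675 probe sets. The submitters' notes name RMA and affy 1.14.2, but the values have the form of MAS 5.0 signals: low linear signals are multiples of 0.1, every array has a 2% trimmed mean of 250.0, and arrays set against each other rank by rank differ by as much as 1.58. Dim genes therefore have large and noisy log2 differences. The number of arrays limits the precision.

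Probe sets were named through GEO's platform annotation, with symbols updated through RefSeq: 41091 name 1 gene, 1801 several and 11721 none, 62 are controls, and 6 with a missing value were left out. The lmFit and eBayes functions of limma 3.58.1 (R 4.3.3) were fitted over 11756 genes to all 9 arrays, with 1 mean per dose and no covariate, and the thresholds of 0.05 for the adjusted p and 2 for the fold followed the study's methods. The floor stood in for their present calls. Members of the family and the lists were chosen with earlier results of these data known. From each list, up to 4 called genes were named by size of change, or, in lists without a call, the 2 of lowest p, along with the genes most correlated with each tested member and the 3 nearest genes on each side. The fit was tested on simulated data of 11756 genes with normal noise. In these, 200 genes were changed, all with a mean log2 signal above 6. It called 88% to 89% of 2.5-fold changes and 0% to 2% of 1.5-fold changes, with 1 to 3 false calls. The smaller fold lies under the 2-fold threshold that a call needs. The share called among dimmer genes, or among genes below the floor in a group, as IGFBP2 and IGFBP3 were, was not tested. The alternatives, 24 in all, covered the filter, the normalization, the probe set that stands for a gene, the test, array weights, the actin control as a covariate and each array left out. Promoter windows were read from the RefSeq table, which lists 27305 genes. Figures were drawn with matplotlib 3.10.9.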

Additional observations from a re-analysis of the deposited data

How the results depend on the processing

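The 3 differences of IGFBP1 and the rise of IGFBP3 at 5 µM kept their direction under all alternatives that gave them a value. Counts of members called in this section leave out IGFBP1, which was not tested. Probe sets ending in _x_at or _s_at left out gave no value for IGFBP3, whose 2 probe sets both end so. That setting left 0 members higher at 5 µM and 1 lower between 10 and 5 µM, while IGFBP1 still differed by 6.60 at 5 µM. Of 23 alternatives, 22 called the rise of IGFBP3 and 20 its fall between 5 and 10 µM. Of 24, 16 called the fall of IGFBP2 between 5 and 10 µM and 14 that between 0 and 10 µM. The fit of every probe set with none filtered stands outside these counts. It called the rise of IGFBP3 (limma adjusted p = 0.0183) but not its fall (0.0885). Neither fall of IGFBP2 was called in it (limma adjusted p = 0.124 and 0.128). That fit and the alternative with 10 µM replicates 2 and 3 left out together were chosen after seeing the data. Where a cause is not named, the cause was not tested.

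With signals raised to the floor, IGFBP1 differed by 5.27 at 5 µM and 3.20 at 10 µM against the vehicle, since its vehicle signals lie below it, and IGFBP2 by -0.54 between 10 and 0 µM (adjusted p = 0.135), with 0 members called lower there. The mean of all probe sets of a gene gave IGFBP1 differences of 3.37, -0.84 and 2.53, since its other probe set lies below the floor. With the gap between the actin 3′ and 5′ controls as a covariate, the differences were 5.15 at 5 µM and -3.24 between 10 and 5 µM for IGFBP3 (adjusted p = 0.0524 and 0.263), -2.93 and -2.11 for IGFBP2 at 10 µM against 5 and 0 µM (adjusted p = 0.29 and 0.859), and 0.80 for IGFBP4 between 10 and 0 µM, so that 0 members were called in any comparison. From 10 µM replicate 1 alone, 1 array assumed to vary like those of the other groups, IGFBP2 gave -1.46 and -0.59, IGFBP3 -2.75, IGFBP4 0.22 and 0.66, and IGFBP6 0.21 between 10 and 0 µM, with 0 members lower in either. Array weights gave IGFBP4 a called fall of -1.44 between 10 and 5 µM and IGFBP3 a difference of -0.24 between 10 and 0 µM. Quantile normalization gave -0.05 for IGFBP3 and 0.01 for IGFBP6 there. IGFBP3 lies below the floor in both of these groups, so its sign there has no meaning. With no filter on dim genes, IGFBP2 gave -2.88 (adjusted p = 0.0651) and -2.00 (0.0911), and 1 and 0 members were lower. The methods' t-test with Benjamini-Hochberg gave 0 members lower in either comparison with 10 µM, with -2.88 (adjusted p = 0.125) and -2.00 (0.19) for IGFBP2 and -3.95 (0.0604) for IGFBP3. A fit of the 2 groups alone gave -2.00 for IGFBP2 between 10 and 0 µM (0.0732), with 0 members lower.

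For the lists, the 9 genes higher at 5 µM became 5 with the actin covariate, 5 with the floor at the 60th percentile and 4 with the mean of probe sets, and the 0 lower became 1 with equal array medians or with probe sets in place of genes. The 4 lower between 10 and 5 µM became 1 without 10 µM replicates 2 and 3, 0 with the actin covariate, 8 with array weights, 2 with the mean of probe sets, 1 with no filter and 0 by the methods' t-test. Between 10 and 0 µM, the 5 higher became 0 with the covariate, 2 with the 60th percentile or with signals raised, 1 with the mean of probe sets, 3 with no filter and 1 by the methods' t-test. The 2 lower there became 1 without 10 µM replicates 2 and 3, 0 with the covariate, 6 with equal medians, 1 with the mean of probe sets, 1 by the methods' t-test and 1 without probe sets ending in _x_at or _s_at.

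With each array left out in turn, the differences between 10 and 5 µM ranged from -3.59 to -2.26 for IGFBP2 and from -1.37 to -0.50 for IGFBP4. Those between 10 and 0 µM ranged from -2.71 to -1.38 for IGFBP2, from -0.32 to 0.98 for IGFBP3 and from -0.30 to 0.05 for IGFBP6. Members lower numbered 1 to 3 between 10 and 5 µM and 0 to 1 between 10 and 0 µM, and list genes lower 1 to 8 and 1 to 3. The replicate numbers of the labels did not pair the arrays, since deviations of same-numbered arrays correlated between -0.089 and 0.179. The replicate number as a block changed no call of a member: IGFBP3 at 5 µM stayed at 4.23 (adjusted p = 0.00584), and IGFBP2 at -2.88 (0.0332) and -2.00 (0.0486). Signal over background limited IGFBP5 and IGFBP7, which could not be tested, and every value below the floor.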
